A study of Mus musculus with 12 samples.

Results

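Stromal cells recovered from the bone marrow were compared with stromal cells recovered from the injection site, in mice that had received stromal and tumour cells together. The libraries were chosen by their titles: 3 titled BMSC BM and 3 titled BMSC TUMOR, which are 6 of the 12 libraries of the series. All libraries were made from mouse bone marrow stem cells (BMSC) of strain C57BL/6, of unmodified genotype (written "wide type" in the labels), which carried green fluorescent protein (GFP) and were sorted before RNA was taken. The BM cells were sorted from the marrow of tumour-bearing mice injected with GFP-BMSC mixed with RFP-LLC, Lewis lung carcinoma cells (a transplantable tumour of C57BL/6 mice) that carry red fluorescent protein. The TUMOR cells were sorted from the cancer inoculation site of mice given the same mixture. The NC libraries (GFP-BMSC in primary culture) and the HOMING libraries (GFP-BMSC sorted from marrow after subcutaneous injection without tumour cells) served to divide the genes into classes and to place levels side by side. The sort gate, its purity, the time between injection and recovery, and whether the 3 libraries of a group came from separate animals are not given in the sources used here. The p-values below therefore rest on the spread among these libraries, part or all of which may be technical.

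Bone marrow stromal cells are fibroblast-like cells that support blood formation. They secrete chemokines, colony-stimulating factors, proteases and matrix, and many of these genes are switched on by the transcription factor NF-kB. Grafted tumours grow faster than their blood supply, and cells short of oxygen stabilise hypoxia-inducible factors, which switch on glucose uptake, glycolysis, vessel growth and collagen-modifying enzymes. Cells short of amino acids or with misfolded protein use another programme, in which ATF4 and CHOP (the product of Ddit3) switch on amino acid transporters and synthetic enzymes.

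The 12 libraries held 43232145 to 46166519 expected counts each, and the 3 BM libraries correlated with each other at Pearson r of 0.998 to 0.999 across genes (genes are not independent replicates). The 3 TUMOR libraries correlated at 0.993 to 0.998, and pairs of a BM and a TUMOR library at 0.942 to 0.956. Some genes expressed by stromal cells were abundant in both places. Cd34 measured 100.4 ± 2.81 FPKM (fragments by transcript length and sequencing depth; mean ± SD, n = 3) in BM and 101 ± 14.4 in TUMOR, Col1a1 212 ± 7.04 and 211 ± 33.1, and Ly6a (Sca-1) 54.2 ± 1.02 and 64.6 ± 7.59 (these 3 genes were chosen after their values were seen). Of 18 stromal identity genes, which include Ly6a but not Cd34 or Col1a1, 15 could be tested. Their mean levels ran from 1.07 (Alcam) to 866 FPKM (Vim) in BM and from 0.78 (Alcam) to 1926 (Vim) in TUMOR. The surface marker genes Thy1 and Nt5e and the leptin receptor gene Lepr were too low to be tested.

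Of 21001 genes listed in any library, 12314 reached 1 FPKM in at least 3 libraries and were tested. Between BM and TUMOR 1752 genes (14.2%) were called, that is, they differed by at least 2-fold at an adjusted p under 0.05 in edgeR's quasi-likelihood test. There were 856 genes higher in TUMOR (6.95%) and 896 lower in TUMOR (7.28%). The median log2 change (TUMOR minus BM, so that positive values are higher at the injection site) was 0.01 over all tested genes. Among the called genes, 850 of the 856 higher and 886 of the 896 lower had no overlap in FPKM between the 3 BM and the 3 TUMOR libraries. The limits of a call select for such separation, so these counts add no support to the calls. The share without overlap over all tested genes was not counted. Without TUMOR replicate 1, the library that stands highest for many genes described below, the counts were 772 higher and 839 lower.

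The genes fall into classes by their level in culture. Genes whose NC mean reached 1 FPKM, called expressed in culture below, numbered 11061 among those tested, of which 484 (4.38%) were higher and 539 (4.87%) lower in TUMOR. The class under 1 FPKM in NC held 1253, of which 372 (29.7%) were higher and 357 (28.5%) lower. Genes of the low class entered the test only because another group expressed them, so a high share of calls there follows in part from the filter and is given as a description. Changes of at least 4-fold were called for 70 higher and 126 lower genes in the class expressed in culture, and for 146 higher and 269 lower genes in the other. The scatter plot of mean levels shows how the low class lies away from the line of equality.

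**Figure D1:**
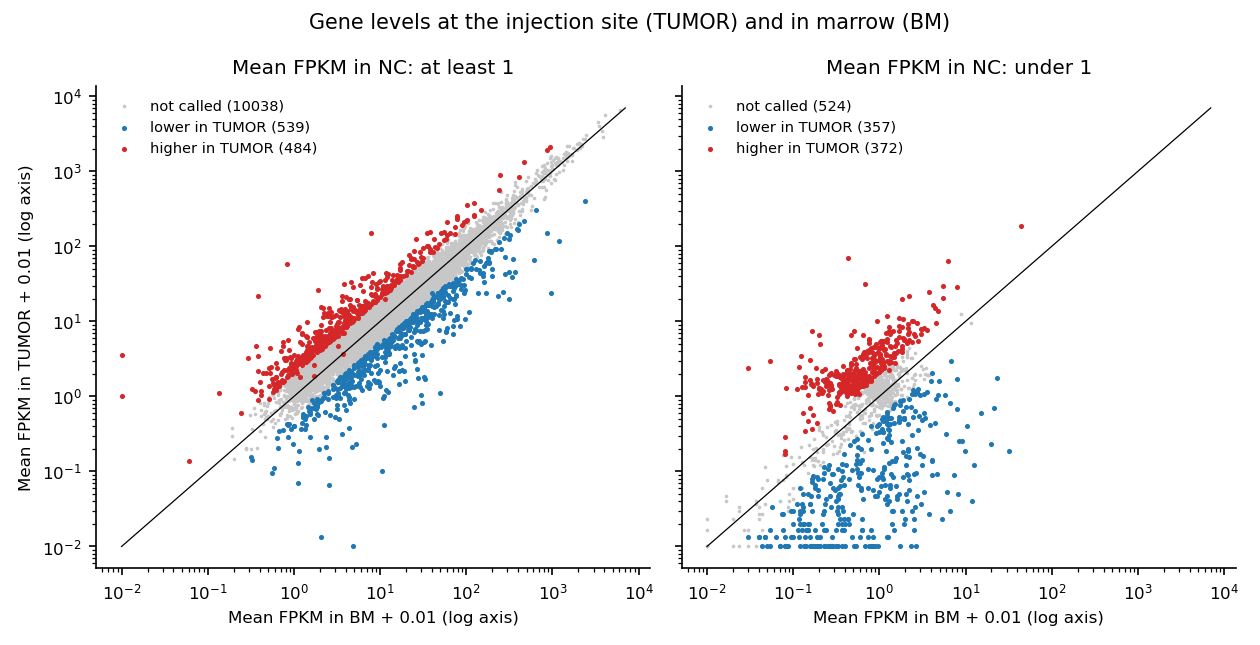
Mean FPKM of each tested gene in BM (horizontal, log axis) and in TUMOR (vertical, log axis), n = 3 libraries per group, with 0.01 FPKM added; the left panel holds genes expressed in culture (NC mean 1 FPKM or more) and the right panel genes under 1. Red points are called higher and blue points lower in TUMOR (484 and 539 on the left, 372 and 357 on the right), grey points are not called, and the line marks equal levels.

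Among genes expressed in culture, the levels in NC lay nearer to BM than to TUMOR for 334 of the 484 genes higher in TUMOR and for 359 of the 539 lower genes. Levels in HOMING lay nearer to BM for 278 of the 484 and for 228 of the 539. These are positions of the group means and carry no test.

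Genes of the hypoxia response were higher at the injection site. Of 18 listed genes 17 were tested, and 11 were higher and 1 lower in TUMOR, with a median log2 change of 1.20 against 0.01 for all tested genes. Of the 16 tested members expressed in culture, 10 were higher, against 4.38% of all genes of that class. Egln3 (Entrez 112407), an oxygen-dependent prolyl hydroxylase that marks hypoxia-inducible factors for degradation and is itself induced by them, measured 7.89, 7.85 and 7.55 FPKM in the BM libraries and 215.07, 115.48 and 126.29 in the TUMOR libraries. The groups lie far apart, and TUMOR replicate 1 is the highest. The log2 change was 4.26 ± 0.22 (SE; edgeR adjusted p = 6.37e-09). Ankrd37 (Entrez 654824), an ankyrin repeat protein induced in low oxygen, measured 1.84, 1.76 and 2.08 FPKM in BM and 27.13, 26.10 and 24.59 in TUMOR, a log2 change of 3.73 ± 0.18 (edgeR adjusted p = 3.49e-09). Its 3 TUMOR libraries were close together. Ero1a, an oxidase of the endoplasmic reticulum, rose from 55.1 ± 1.16 to 121 ± 5.43 FPKM.

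Adm (Entrez 11535), which encodes the vessel-widening peptide adrenomedullin, had the largest rise of the list and belongs to the class under 1 FPKM in culture. Its levels were 0.51, 0.29 and 0.46 FPKM in BM and 101.08, 50.98 and 56.09 in TUMOR, against 0.14 ± 0.08 in NC and 1.53 ± 0.10 in HOMING. The BM and TUMOR libraries did not overlap, and the log2 change was 7.32 ± 0.33 (edgeR adjusted p = 2.08e-09).

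Other members with higher levels in BM rose by smaller factors; those given here were picked with their values known. The mitophagy gene Bnip3 rose from 77.6 ± 1.93 to 235 ± 11.5 FPKM, the collagen prolyl hydroxylase subunit P4ha2 from 16.9 ± 0.65 to 50.7 ± 3.54, and Egln1, the main oxygen-sensing hydroxylase, from 35.9 ± 1.49 to 101 ± 8.10. The glucose transporter Slc2a1 rose from 88.2 ± 0.98 to 190 ± 10.5 FPKM and Pdk1, which holds pyruvate back from mitochondria, from 16.9 ± 0.43 to 40.1 ± 4.36. In HOMING these 5 genes measured 89.4, 19.1, 45.5, 92.8 and 14.3 FPKM, and none of those means reached its TUMOR level. The 1 list member called lower was Stc2, which encodes the secreted protein stanniocalcin-2 and also stands in the ATF4 list; it measured 59.6 ± 2.91 FPKM in BM and 8.23 ± 2.21 in TUMOR. Vegfa, the classic vessel growth factor, was not called: it measured 121 ± 2.58 FPKM in BM and 85.3 ± 1.77 in TUMOR, a log2 change of -0.57 ± 0.04 that stays under the 2-fold limit at an edgeR adjusted p of 9.16e-08.

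Hypoxia-inducible factors bind the core letters ACGTG, so the promoters of the called hypoxia genes were searched for them on both strands, from 250 bases before to 50 after the start in the RefSeq promoter table (GRCm38.p6). The core overlaps the E-box CACGTG. It was found in 10 of the 15 promoters of the 12 called members (66.7%), against 19.6% of all 32851 promoters in the table and 25.8% of the promoters of tested genes. A match describes the letters and is no evidence of binding. The genes were put on the list as hypoxia genes, so the matches are no independent support, and Stc2 among them was lower in TUMOR. The letters were also found in promoters of called genes described below that were lower in TUMOR. They were in 5 of 10 promoters for ATF4 and CHOP genes and in 4 of 13 for amino acid genes. The counts were 2 of 3 for neutrophil-attracting CXC chemokines and 2 of 11 for NF-kB genes. For colony-stimulating factors and interleukins the count was 0 of 12. Promoter stretches of 6 genes that rose are shown with the match in capitals, as ACGTG or, read on the other strand, CACGT, each 5′ to 3′ on the strand of its gene.
Egln3, chr12:54204079-54204123, minus strand: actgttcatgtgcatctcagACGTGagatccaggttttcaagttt
Ankrd37, chr8:46000067-46000100, minus strand: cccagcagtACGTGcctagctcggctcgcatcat
Ero1a, chr14:45318611-45318655, minus strand: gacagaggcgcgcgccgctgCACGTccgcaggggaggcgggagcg
Egln1, chr8:124949298-124949342, minus strand: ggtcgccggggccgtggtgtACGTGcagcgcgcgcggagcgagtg
P4ha2, chr11:54100826-54100870, plus strand: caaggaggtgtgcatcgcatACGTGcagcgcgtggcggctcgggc
Slc2a1, chr4:119108689-119108733, plus strand: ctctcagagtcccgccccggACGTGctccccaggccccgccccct

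**Figure D2:**
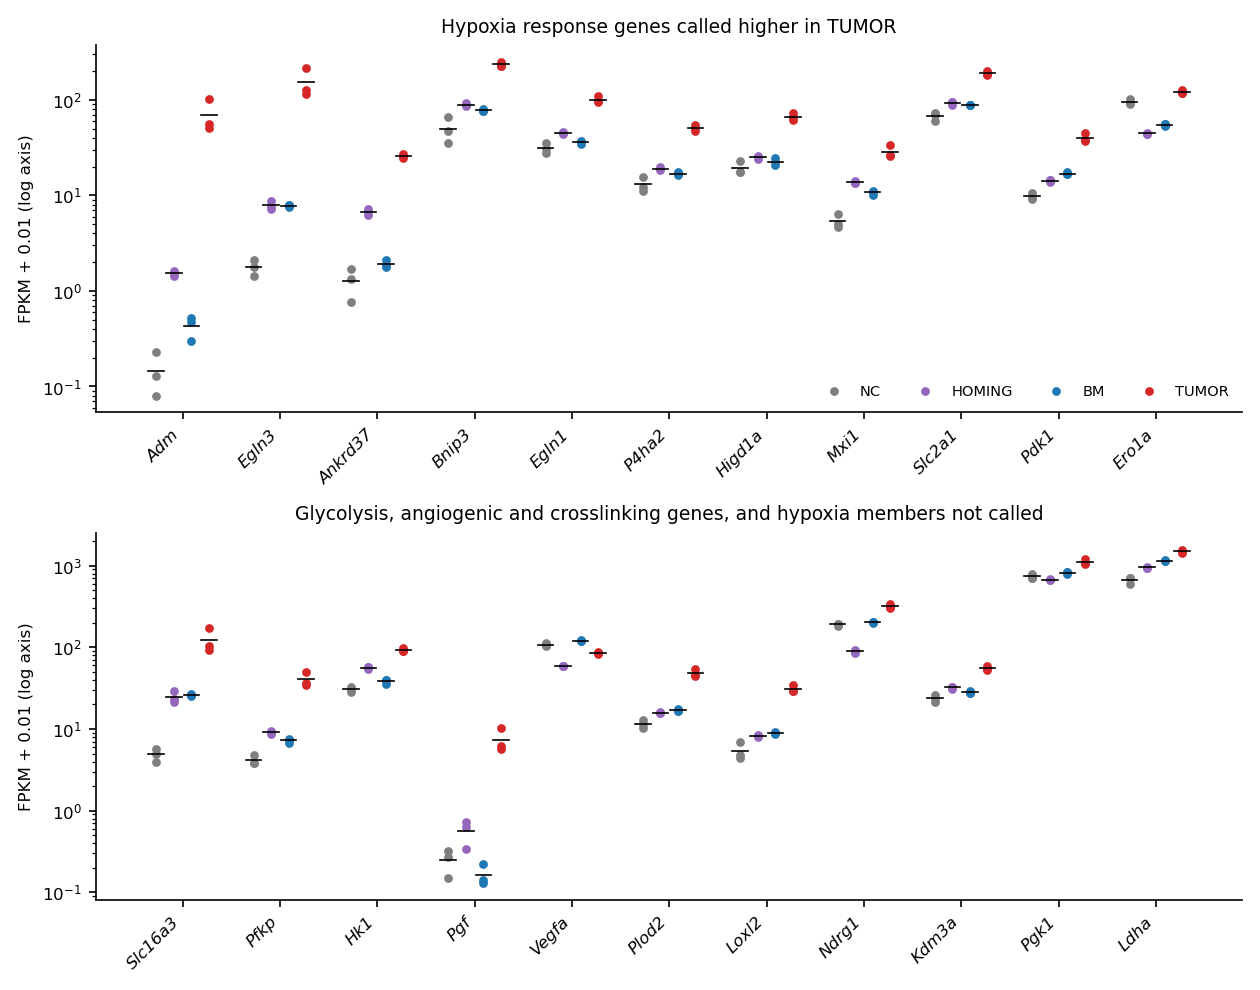
FPKM per library (points, log axis, 0.01 added) in NC, HOMING, BM and TUMOR, with a bar at each mean (n = 3). The upper panel shows the 11 hypoxia genes called higher in TUMOR, where every TUMOR point lies above every BM point; the lower panel shows glycolysis, angiogenic and collagen-crosslinking genes and hypoxia members that were not called, among them Vegfa at 121 FPKM in BM and 85.3 in TUMOR.

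Glycolysis genes were higher or not called. All 18 were tested, and 4 were higher and none lower in TUMOR, with a median log2 change of 0.58. The lactate exporter Slc16a3 measured 25.81, 27.00 and 25.25 FPKM in BM and 173.36, 93.45 and 104.71 in TUMOR, a log2 change of 2.20 ± 0.20 (edgeR adjusted p = 1.01e-06). Pfkp, the platelet form of phosphofructokinase, went from 7.25 ± 0.40 to 40.6 ± 8.59 FPKM, and Hk1 (hexokinase 1) from 38.2 ± 2.10 to 92.4 ± 4.82. The enzymes Ldha and Pgk1, chosen after their values were seen, stayed under the 2-fold limit with log2 changes of 0.34 ± 0.06 and 0.39 ± 0.06. None of 20 respiratory chain subunits was called (median 0.12), and their log2 changes ran from -0.29 to 0.58.

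Among 14 tested angiogenic factors 2 were higher and 2 lower. Of the 9 expressed in culture none was higher and 1 was lower, and the other 5 held 2 higher and 1 lower, against 29.7% and 28.5% over all genes of the class under 1 FPKM in NC. Besides Adm, Pgf (placental growth factor, a ligand of VEGF receptor 1) was higher: it measured 0.13, 0.12 and 0.21 FPKM in BM and 10.19, 5.62 and 6.17 in TUMOR, a log2 change of 5.55 ± 0.36 (edgeR adjusted p = 4.45e-08). The lymphatic growth factor Vegfc fell from 16.9 ± 0.62 to 5.93 ± 0.77 FPKM, and Hgf (hepatocyte growth factor) from 1.69 ± 0.04 to 0.48 ± 0.13. The groups of both genes did not overlap.

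The largest rises among genes expressed in culture, with at least 5 FPKM in TUMOR and no overlap, were Krt19, Egln3, Ankrd37, Ndufa4l2, Pdlim2, Cxxc5, Eps8l2, S100a16, Ccng2 and Medag, out of 321 genes that met the conditions. Krt19 (Entrez 16669), a keratin of simple epithelia, measured 0.31, 0.40 and 0.40 FPKM in BM and 21.03, 21.32 and 22.41 in TUMOR, with 2.72 ± 1.26 in NC and 4.61 ± 0.50 in HOMING. The log2 change was 5.76 ± 0.27 (edgeR adjusted p = 3.08e-09). Ndufa4l2, a mitochondrial protein induced in low oxygen, rose from 3.83 ± 0.525 to 31.5 ± 1.90 FPKM, and Ccng2 (cyclin G2, associated with cell cycle arrest) from 4.60 ± 0.24 to 33.4 ± 1.15. Pdlim2 rose from 2.07 ± 0.23 to 15.6 ± 2.55 FPKM and Cxxc5 from 2.19 ± 0.07 to 15.3 ± 2.05; they encode an adaptor with PDZ and LIM domains and a zinc finger protein that represses WNT signalling. The log2 changes of the other members, Eps8l2, S100a16 and Medag, were 2.83, 2.82 and 2.78.

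Matrix genes moved in both directions. Among 16 tested collagens 3 were higher and 1 lower, and the interstitial collagens Col1a1, Col1a2 and Col3a1 had log2 changes of -0.05, 0.24 and 0.21, not called. Col6a2 and Col6a3, chains of the microfibrillar collagen VI, rose from 3.34 ± 0.41 to 9.84 ± 0.35 FPKM and from 4.56 ± 0.12 to 15.4 ± 2.23, while Col5a3 fell from 16.6 ± 0.04 to 2.19 ± 0.20. Of 19 matrix glycoproteins and crosslinking enzymes 4 were higher and 3 lower. The crosslinking enzyme Loxl3 (2.62 ± 0.02 to 6.38 ± 0.47 FPKM) and the lysyl hydroxylase Plod2 (17.0 ± 0.58 to 48.5 ± 5.62) rose. Loxl2, chosen after its values were seen, rose from 9.02 ± 0.24 to 31.0 ± 2.96 FPKM. Its relatives Lox, Loxl1 and Loxl4, likewise chosen, were not called, with log2 changes of 0.29, -0.29 and 0.26. Fbln5 of the same list fell from 4.56 to 1.79 FPKM. Decorin (Dcn), a small proteoglycan that binds collagen fibrils, measured 594.72, 593.68 and 625.84 FPKM in BM and 52.44, 71.59 and 73.17 in TUMOR, and fell by 3.24 ± 0.15 on the log2 scale (edgeR adjusted p = 2.29e-09). Its level was 96.1 ± 20.6 in NC and 207 ± 16.5 in HOMING, so BM was the highest of the 4 groups.

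Contractile and CCN genes were split, with 3 higher and 3 lower of 12 tested. The matricellular genes Ccn4 and Ccn3 fell from 35.7 ± 0.38 to 9.35 ± 0.97 FPKM and from 70.6 ± 0.43 to 25.4 ± 4.16, while Ccn5 rose from 0.74 ± 0.09 to 4.63 ± 0.61 and the calponin gene Cnn2 from 94.3 ± 2.97 to 214 ± 38.3. The smooth muscle actin gene Acta2, chosen after its values were seen, measured 120.3 ± 5.15 FPKM in BM and 124 ± 25.6 in TUMOR and was not called. Of the 15 stromal identity genes tested, 3 were higher and 1 lower (median -0.03): Vim (vimentin) rose from 866 ± 45.5 to 1926 ± 24.5 FPKM, S100a4 from 472 ± 31.9 to 1316 ± 51.0 and Eng (endoglin) from 4.75 ± 0.32 to 13.9 ± 4.66, while the BMP antagonist Grem1 fell from 469 ± 5.93 to 221 ± 45.8. The call on Grem1 was lost without TUMOR replicate 1.

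Signalling ligands changed in part. Of 9 tested WNT genes 4 were higher and none lower (median 0.82). Of the 7 expressed in culture 2 were higher, against 4.38% of all genes of that class. The other higher members, Wnt4 and Wnt7b, were under 1 FPKM in NC, where 29.7% of all genes were higher. The higher genes included Wnt10b (1.25 ± 0.12 to 3.18 ± 0.11 FPKM), Wnt7b (0.99 ± 0.07 to 3.06 ± 0.93) and the feedback gene Axin2 (1.04 ± 0.02 to 2.20 ± 0.29). The call on Axin2 was lost without TUMOR replicate 2 and without TUMOR replicate 3. In the TGF-beta, activin and BMP list 2 of 18 were higher and 4 lower. The activin subunit Inhba fell from 69.5 ± 2.59 to 19.8 ± 4.56 FPKM and its inhibitor follistatin (Fst) from 4.91 ± 0.18 to 0.91 ± 0.12, while Fstl3, a second activin-binding protein, rose from 4.83 ± 0.43 to 14.6 ± 4.38. The IGF-binding protein gene Igfbp3 was the only called member of 7 tested in the IGF list, and fell from 48.3 ± 0.99 to 7.63 ± 0.87 FPKM.

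Inflammatory mediators were lower at the injection site, which is to say higher in the marrow of the co-injected mice. Among neutrophil-attracting CXC chemokines 4 of 5 tested genes were lower and none higher, with a median log2 change of -3.39. All 3 members expressed in culture were lower. Over all tested genes 7.28% were lower, with 4.87% of those expressed in culture and 28.5% of the others. These shares also stand beside the counts of lower genes in the lists below. Cxcl1 (Entrez 14825), a ligand of the neutrophil receptor CXCR2, measured 1142.03, 1160.13 and 1272.11 FPKM in BM and 117.47, 123.12 and 111.56 in TUMOR, and fell by 3.39 ± 0.16 on the log2 scale (edgeR adjusted p = 2.55e-09). Cxcl5 fell from 859 ± 57.8 to 150 ± 26.8 FPKM and Cxcl2 from 69.5 ± 2.81 to 6.73 ± 1.73. The BM level of Cxcl1 also exceeded NC (221 ± 61.5) and HOMING (492 ± 18.3), while Cxcl2 stood at 154 ± 35.5 in HOMING and 1.87 ± 0.49 in NC.

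Of 13 tested monocyte and lymphocyte chemokines 8 were lower and 1 higher (median -2.58). Of the 7 expressed in culture 5 were lower. The remaining calls were in the class under 1 FPKM in NC, where 29.7% of all genes were higher and 28.5% lower. Ccl2 (Entrez 20296), the main attractant of monocytes, measured 2286.88, 2407.83 and 2540.88 FPKM in BM and 337.64, 433.32 and 432.28 in TUMOR, and fell by 2.61 ± 0.08 on the log2 scale (edgeR adjusted p = 2.52e-10). Ccl7 fell from 144 ± 4.39 to 44.5 ± 7.54 FPKM. Ccl3, a chemokine that leukocytes also make in quantity, measured 31.8 ± 0.75 FPKM in BM, 0.18 ± 0.15 in TUMOR, 0.24 ± 0.11 in NC and 271 ± 76.6 in HOMING. The 1 higher member was Cx3cl1, chosen after its values were seen, with 0.58 ± 0.04 FPKM in BM and 2.18 ± 0.62 in TUMOR. Ccl5, likewise chosen, was not called, with 32.4 ± 1.08 FPKM in BM and 48.0 ± 3.63 in TUMOR.

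Colony-stimulating factors and interleukins had 11 of 15 tested members lower and none higher (median -2.66). Of the 10 expressed in culture 6 were lower, against 4.87% over that class. The other lower members, among them Csf3, Il1a and Il1b, were under 1 FPKM in NC, where 28.5% of all genes were lower. They entered the test through other groups, where they are higher. Il6 (Entrez 16193), the central cytokine of the acute-phase response, measured 32.35, 30.05 and 34.85 FPKM in BM and 1.65, 1.87 and 1.91 in TUMOR. It fell by 4.21 ± 0.19 on the log2 scale (edgeR adjusted p = 1.97e-09), with 13.3 ± 2.80 FPKM in NC and 19.3 ± 3.72 in HOMING. Csf3 (granulocyte colony-stimulating factor) measured 5.84, 5.72 and 6.76 FPKM in BM and 0.04, 0.07 and 0.02 in TUMOR, and stood at 0.10 ± 0.07 in NC and 58.4 ± 15.5 in HOMING. Il1b measured 11.9 ± 0.29 FPKM in BM, 0.03 ± 0.03 in TUMOR and 87.4 ± 24.5 in HOMING, and Il1a 12.6 ± 0.35, 0.11 ± 0.02 and 35.2 ± 9.78. Lif, Csf1 and Il33, chosen after their values were seen, fell from 32.3 ± 2.12 to 5.23 ± 0.84 FPKM, from 184 ± 4.98 to 87.1 ± 5.20 and from 86.8 ± 1.48 to 26.7 ± 3.88.

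Markers of neutrophils and of macrophages were also lower in TUMOR, and their part in these results was not tested. Of 13 tested neutrophil markers 11 were lower in TUMOR and none higher (median -5.00, or -4.77 with genes at 0 counts at their bound), and of 12 monocyte and macrophage markers 10 were lower and none higher (median -3.48). Only 2 tested markers of each list were expressed in culture, so that most of them entered the test through the groups where they are high, and 28.5% of all genes of that class were lower. In bulk samples fewer cells of a type and less RNA per cell cannot be told apart. The summed level of the 14 neutrophil markers was 413.8 to 437.9 FPKM in BM, 44.9 to 47.9 in TUMOR, 347.8 to 444.7 in NC and 2696 to 4014 in HOMING. Most of the sum in BM was Lcn2, which stromal cells also make and which stood at 370 ± 12.4 FPKM in BM, 45.2 ± 2.55 in TUMOR and 385 ± 50.7 in NC. S100a8 and S100a9, the calprotectin genes of neutrophils, measured 21.3 ± 3.03 and 19.8 ± 1.85 FPKM in BM, 0.68 ± 0.37 and 0.22 ± 0.26 in TUMOR, and 834 ± 191 and 800.4 ± 161 in HOMING.

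The 15 macrophage markers summed to 60.6 to 62.2 FPKM in BM, 25.4 to 25.8 in TUMOR, 13.7 to 19.5 in NC and 297 to 469 in HOMING. Most of the sum in BM was Cd14, with 36.3 FPKM in BM, 11.3 in TUMOR and 9.98 in NC. Cd68 was not called, with 7.44 FPKM in BM, 12.4 in TUMOR and 5.26 in NC. Cd14 and Cd68 were thus also expressed in culture. The macrophage receptor gene Adgre1 (F4/80) had 382 counts over the BM libraries and 0 over the TUMOR libraries, so it was at least 127-fold lower in TUMOR when the group total of 0 is replaced by a floor of 3 counts. Tyrobp, a signalling adaptor of myeloid cells, had 261 and 1 counts, a ratio of 261 with an exact 95% interval of 46.4 to 10337 that covers counting error only. The neutrophil enzyme gene Mpo, chosen after its values were seen, had 82 and 0 counts, at least 27.3-fold lower in TUMOR. In TUMOR 2 neutrophil and 4 macrophage markers were at 0 in all 3 libraries, and in BM none was. Red cell and megakaryocyte markers were mostly not called. Of 7 tested red cell markers, all under 1 FPKM in NC, 2 were lower and 5 not called, a share near the 28.5% lower over that class. The lower ones were Hbb-bs at 1.13 ± 0.10 FPKM in BM against 0.10 ± 0.13 in TUMOR and Hbb-bt with 22 against 0 counts (at least 7.33-fold); the call on Hbb-bt was lost without BM replicate 2 (edgeR adjusted p = 0.0909) and without any 1 of the TUMOR libraries. Of 5 tested megakaryocyte markers 1, Pf4, was lower (2.07 ± 0.25 FPKM in BM, 0.08 ± 0.08 in TUMOR) and 4 were not called. None of 16 lymphocyte markers reached the level for testing, and they summed to at most 0.75 FPKM in BM and 0.63 in TUMOR.

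NF-kB target genes, which stromal and blood cells share, had 11 of 15 members lower and none higher (median -1.80), and 10 of the 14 expressed in culture were lower. Sod2, the mitochondrial superoxide dismutase, measured 131.53, 133.34 and 141.35 FPKM in BM and 25.23, 23.55 and 23.75 in TUMOR, and fell by 2.53 ± 0.10 on the log2 scale (edgeR adjusted p = 1.26e-09). The subunits Nfkb2 and Relb fell from 129 ± 4.69 to 50.1 ± 4.05 FPKM and from 40.1 ± 0.41 to 11.1 ± 1.06, and the co-regulator Bcl3 from 29.1 ± 1.91 to 7.49 ± 0.39. The inhibitors Nfkbie and Tnfaip3, chosen after their values were seen, fell from 14.8 ± 0.43 to 4.39 ± 0.61 and from 62.0 ± 1.29 to 22.4 ± 2.32. Nfkbia, the main inhibitor, was not called, with a log2 change of -0.56.

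The NF-kB letters GGGNNTTCC, searched on both strands, were found in 4 of the 11 promoters listed for 8 of the called NF-kB genes (36.4%), against 5.82% of all promoters in the table and 7.35% of those of tested genes. They were found in 0 of 3 promoters of the called neutrophil-attracting CXC chemokines. For the called colony-stimulating factors and interleukins the count was 0 of 12. The NF-kB genes were put on their list as NF-kB targets, so their matches are no independent support. The 4 stretches are shown 5′ to 3′ on the strand of their gene, with the match, or its reverse complement, in capitals.
Nfkb2, chr19:46304678-46304726, plus strand: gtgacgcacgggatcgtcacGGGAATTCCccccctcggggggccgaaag
Nfkbie, chr17:45555575-45555623, plus strand: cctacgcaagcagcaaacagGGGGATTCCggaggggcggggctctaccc
Tnfaip3, chr10:19015411-19015442, minus strand: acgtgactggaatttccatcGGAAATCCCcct
Bcl3, chr7:19822831-19822879, minus strand: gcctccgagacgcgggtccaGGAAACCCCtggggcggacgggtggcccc

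The 10 largest falls among genes expressed in culture, out of 393 that met the conditions, were Hp, Lilrb4a, Saa3, Lilr4b, Steap4, Slfn2, Cfb, Camp, Mmp13 and Il6. Saa3 (Entrez 20210), an acute-phase apolipoprotein made by stromal cells and macrophages, measured 901.33, 942.73 and 1023.20 FPKM in BM and 24.03, 24.28 and 23.80 in TUMOR. The 3 TUMOR libraries were close together and far below BM, and the log2 change was -5.36 ± 0.26 (edgeR adjusted p = 3.32e-09). Its level was 229 ± 101 FPKM in NC and 254 ± 35.1 in HOMING. The metal reductase gene Steap4 fell from 24.8 ± 1.08 to 0.71 ± 0.07 FPKM, with 8.55 ± 3.33 in NC and 5.33 ± 0.59 in HOMING. Complement factor B (Cfb) fell from 11.2 ± 0.14 to 0.41 ± 0.08 FPKM and the haemoglobin-binding protein haptoglobin (Hp) from 10.4 ± 0.69 to 0.09 ± 0.02. The leukocyte receptors Lilrb4a and Lilr4b measured 49.7 ± 0.89 and 30.6 ± 0.28 FPKM in BM, 1.11 ± 0.20 and 0.81 ± 0.39 in TUMOR, and 107 ± 32.1 and 51.7 ± 13.7 in HOMING; they are near-identical neighbours whose reads the counting could divide between them.

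Secreted proteases followed. Of 19 tested metalloproteinases and inhibitors 6 were lower and none higher (median -0.56), and 5 of the 14 expressed in culture were lower. Mmp3 (stromelysin 1) measured 313.43, 299.05 and 317.97 FPKM in BM and 25.33, 17.09 and 17.46 in TUMOR, and fell by 4.00 ± 0.16 on the log2 scale (edgeR adjusted p = 1.10e-09). The collagenase Mmp13 fell from 33.5 ± 1.25 to 1.68 ± 0.10 FPKM, with 10.2 ± 2.49 in NC and 36.7 ± 8.85 in HOMING. Adamts1 fell from 34.0 ± 1.39 to 9.99 ± 0.38 FPKM. Mmp14, the membrane collagenase, was not called (57.5 ± 2.23 in BM, 54.8 ± 1.92 in TUMOR; chosen after its values were seen). In the plasminogen list the protease inhibitor Serpine2 fell from 159.7 ± 2.24 to 33.8 ± 5.16 FPKM and Serpinb2 from 39.2 ± 0.10 to 4.82 ± 1.66, while Serpinf1 rose from 64.7 ± 0.81 to 149 ± 42.9, a call lost without TUMOR replicate 1.

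Mediators that act on the matrix and on immune cells included Ptx3 (pentraxin 3), which fell from 343 ± 14.6 to 39.1 ± 6.41 FPKM, and Tnfaip6 (TSG-6), from 27.0 ± 2.32 to 2.32 ± 0.29. Of 14 suppressive and prostaglandin genes 5 were lower and none higher, and of the 10 expressed in culture 2 were lower. The other lower members, Arg1, Il10 and Entpd1, were under 1 FPKM in NC, where 28.5% of all genes were lower. Il10 and Entpd1 measured 0.14 and 0.05 FPKM in BM and 0.04 and 0.02 in TUMOR. They entered the test through HOMING (5.92 and 1.41 FPKM). The call on Il10 was lost without BM replicate 1, BM replicate 3 or TUMOR replicate 3. Nos2 (inducible nitric oxide synthase) fell from 64.3 ± 3.43 to 12.8 ± 1.15 FPKM, with 4.64 ± 0.92 in NC and 33.3 ± 3.75 in HOMING. Ptgs2 (cyclooxygenase-2) measured 203.87, 197.44 and 199.18 FPKM in BM and 32.71, 44.65 and 44.09 in TUMOR, and fell by 2.35 ± 0.23 on the log2 scale (edgeR adjusted p = 1.54e-06). Has1 (hyaluronan synthase 1) and Hyal1 were called higher, but for Has1 the sum over transcripts hides a shift between them: its FPKM was 1.72 ± 0.24 in BM and 1.89 ± 0.16 in TUMOR, and with the most abundant transcript in place of the sum the log2 change was -2.08.

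The ATF4 and CHOP stress response was lower in TUMOR. Of 15 genes 10 were lower and none higher (median -1.70), all of them expressed in culture. Chac1 (Entrez 69065), an enzyme that degrades glutathione, measured 227.96, 239.15 and 226.90 FPKM in BM and 19.08, 23.24 and 23.79 in TUMOR. It fell by 3.44 ± 0.09 on the log2 scale (edgeR adjusted p = 3.93e-11), and its level was 201 ± 15.0 in NC and 24.0 ± 1.17 in HOMING. BM and NC thus lay together, and TUMOR and HOMING lay together. Trib3, a pseudokinase induced by ATF4, showed that order too, with 92.9 ± 1.98 FPKM in BM, 23.7 ± 2.04 in TUMOR, 101 ± 4.92 in NC and 18.0 ± 0.64 in HOMING. Herpud1, which acts in the degradation of misfolded protein, fell from 156 ± 1.00 to 43.6 ± 1.45 FPKM, and Ppp1r15a (GADD34) from 200.5 ± 4.72 to 50.6 ± 3.21. Among the 14 chaperones of the endoplasmic reticulum 1 was called higher (Sdf2l1) and none lower, with a median of -0.06, and Hspa5 (BiP), chosen after its values were seen, measured 440.0 ± 8.79 FPKM in BM and 316 ± 5.59 in TUMOR.

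Amino acid synthesis and transport genes were lower for 14 of 18 tested members and higher for none (median -1.23). Cth, which makes cysteine, measured 56.87, 54.35 and 61.43 FPKM in BM and 6.20, 7.80 and 7.77 in TUMOR, and fell by 3.03 ± 0.08 on the log2 scale (edgeR adjusted p = 3.93e-11). Asns (asparagine synthetase) fell from 217 ± 6.87 to 93.1 ± 1.09 FPKM, the cationic amino acid transporter Slc7a1 from 75.5 ± 4.96 to 22.7 ± 1.12, and Slc3a2, the shared heavy chain of several transporters, from 310.2 ± 7.57 to 124 ± 2.16. Levels in NC were 91.7, 267, 78.5 and 366 FPKM for these 4 genes, and in HOMING 12.4, 108, 24.1 and 167. Slc7a11, the cystine importer, chosen after its values were seen, fell from 30.8 ± 1.38 to 3.51 ± 0.28 FPKM. Phgdh and Psat1, the entry enzymes of serine synthesis, were not called, with log2 changes of -0.35 and -0.64.

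CHOP and ATF factors bind a composite element, searched here as TGATGNAA on both strands. It was found in 5 of 10 promoters of the called ATF4 and CHOP genes and in 3 of 13 promoters listed for 10 of the called amino acid genes (23.1%), against 3.97% of all promoters in the table and 2.23% of those of tested genes. The letters were also in 2 of 11 promoters of the called NF-kB genes (18.2%). They were in 0 of 15 for hypoxia genes, 0 of 3 for neutrophil-attracting CXC chemokines and 0 of 12 for colony-stimulating factors and interleukins. Asns stands on both lists and is counted in both shares. As above, the lists were made of known targets. Promoter stretches of 5 of these genes are shown 5′ to 3′ on the strand of the gene, with the match, or its reverse complement, in capitals.
Chac1, chr2:119351029-119351076, plus strand: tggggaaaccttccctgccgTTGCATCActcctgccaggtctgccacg
Herpud1, chr8:94386297-94386344, plus strand: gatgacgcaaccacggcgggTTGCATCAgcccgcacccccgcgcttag
Asns, chr6:7693210-7693252, minus strand: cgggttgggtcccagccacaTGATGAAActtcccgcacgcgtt
Nupr1, chr7:126625553-126625600, minus strand: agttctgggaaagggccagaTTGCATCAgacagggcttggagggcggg
Slc7a11, chr3:50443652-50443699, minus strand: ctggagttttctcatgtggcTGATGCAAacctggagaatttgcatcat

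**Figure D3:**
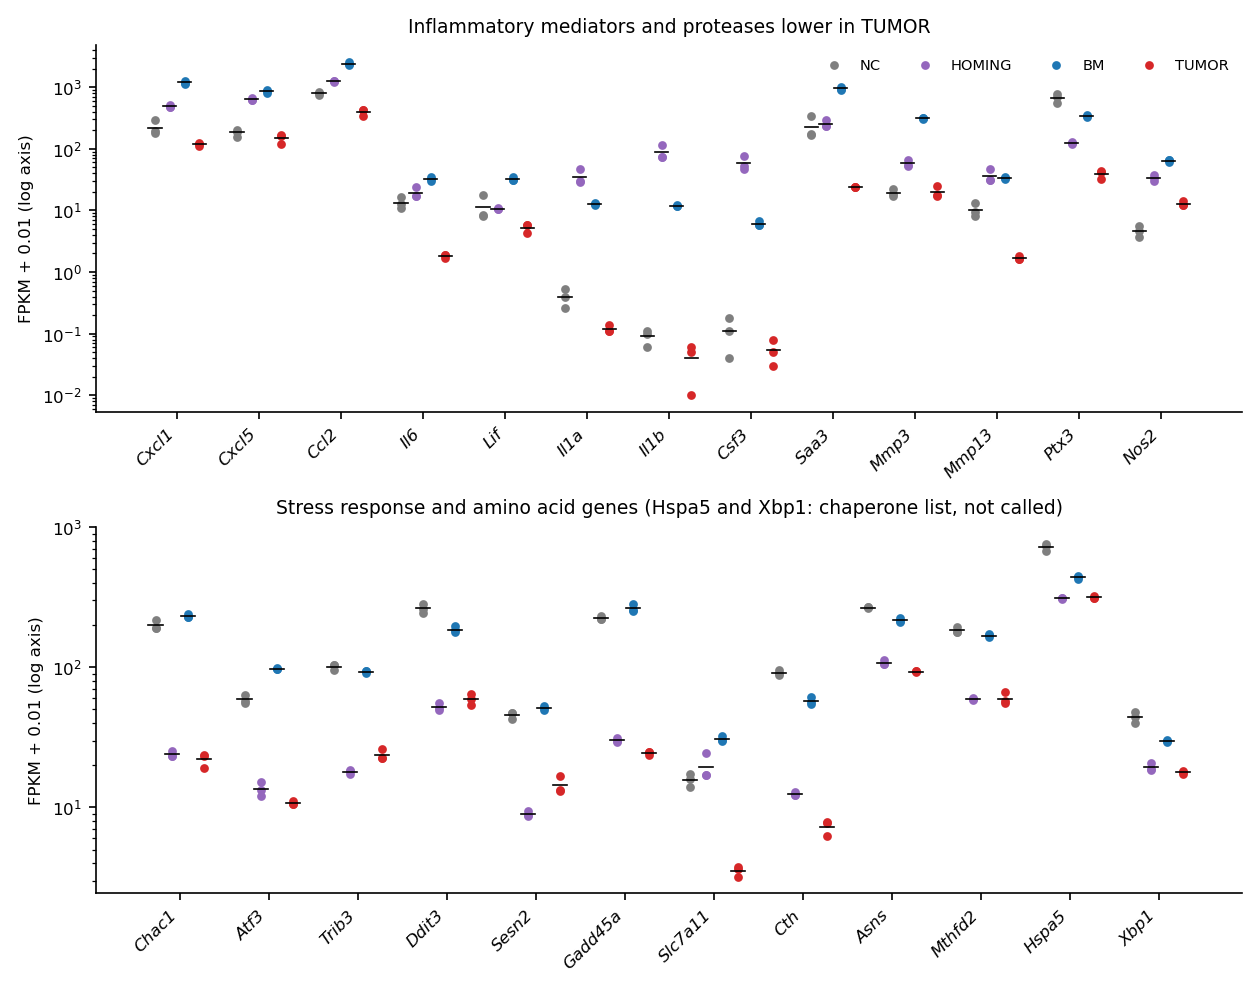
FPKM per library (points, log axis, 0.01 added) in NC, HOMING, BM and TUMOR, with a bar at each mean (n = 3). In the upper panel inflammatory mediators and proteases are higher in BM than in TUMOR, with Il1a, Il1b and Csf3 highest in HOMING; in the lower panel the BM points of stress and amino acid genes lie near NC and the TUMOR points near HOMING for Chac1 and Trib3.

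Further stress genes were lower in TUMOR, and one was higher. Of 13 tested p53 targets 6 were lower and 1 higher (median -0.84). Gadd45a (Entrez 13197), a growth arrest gene induced by DNA damage and by ATF4, measured 254.86, 254.11 and 282.50 FPKM in BM and 24.71, 24.75 and 23.70 in TUMOR, with 225 ± 7.63 in NC and 30.1 ± 1.03 in HOMING. It fell by 3.48 ± 0.06 on the log2 scale (edgeR adjusted p = 2.01e-12). Plk2 fell from 349 ± 15.8 to 67.7 ± 16.8 FPKM. The exception was the cell cycle inhibitor Cdkn1a (p21), chosen after its values were seen, which rose from 29.3 ± 0.64 to 83.8 ± 9.49. Of 14 immediate early genes 5 were lower and none higher, among them Atf3 (97.2 ± 1.04 to 10.7 ± 0.31 FPKM), Egr1 (77.8 ± 3.42 to 10.8 ± 2.20) and Junb (253 ± 12.6 to 92.7 ± 5.09). Of 24 cell cycle genes 1, Ccnb2, was called, higher in TUMOR, and that call was lost without TUMOR replicate 1.

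Interferon response genes had 7 of 23 members lower and 2 higher. Of the 11 expressed in culture 3 were lower and none higher. The other 12 held the remaining calls, against 29.7% higher and 28.5% lower over all genes of the class under 1 FPKM in NC. The guanylate-binding protein gene Gbp2 fell from 19.2 ± 0.85 to 1.58 ± 0.03 FPKM, and Irf9 from 5.75 ± 0.76 to 1.51 ± 0.25, with 26.2 ± 5.12 and 13.5 ± 2.72 in HOMING. In antigen presentation 4 of 14 were higher and 3 lower; 7 of the 14 were under 1 FPKM in NC, and these held 2 of the higher and all 3 of the lower calls, against 29.7% and 28.5% over that class. The class I gene H2-D1 rose from 46.2 ± 0.16 to 95.6 ± 29.7 FPKM (a call lost without TUMOR replicate 1), while the class II genes H2-Aa and H2-Ab1 had 41 and 92 counts in BM against 0 and 7 in TUMOR, so that H2-Aa was at least 13.7-fold lower. Adipocyte regulators were lower for 4 of 9 and higher for 1: Cebpb fell from 278 ± 37.3 to 72.1 ± 4.96 FPKM and Cebpd from 71.2 ± 3.79 to 10.6 ± 1.35, while Pparg rose from 0.61 ± 0.04 to 1.79 ± 0.215. In the niche factor list Vcam1 measured 24.83 to 25.27 FPKM in BM and 5.99 to 8.02 in TUMOR and was called lower, and Cxcl12 and Kitl, chosen after their values were seen, were not called (log2 changes 0.49 and -0.90). Of 5 osteoblast genes Phex rose from 1.35 ± 0.05 to 6.37 ± 0.505 FPKM, and of 3 chondrocyte and tendon genes Scx rose from 4.86 ± 0.07 to 15.3 ± 2.53. The plot of gene lists sets these medians side by side, with none of 13 housekeeping genes called.

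**Figure D4:**
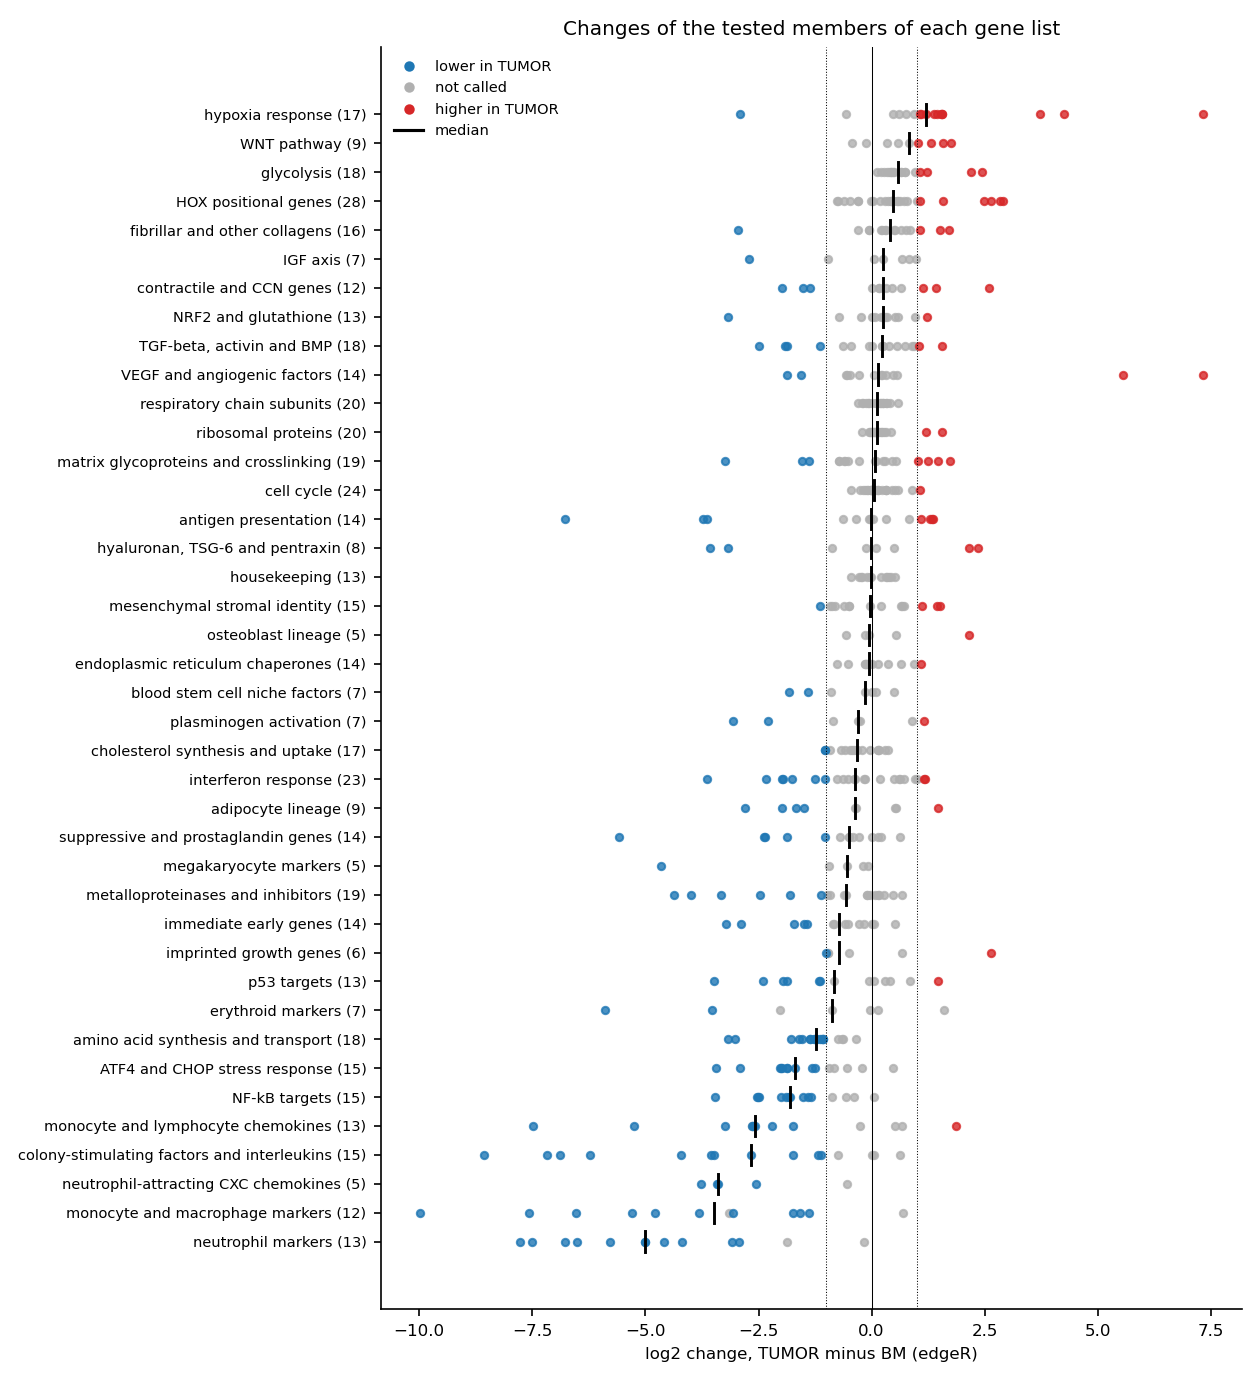
Log2 change (TUMOR minus BM, edgeR) of every tested member of lists with at least 5 tested members, ordered by the median (black bar), with the number tested in brackets and dotted lines at the 2-fold limits. Hypoxia response has the highest median (1.20) and neutrophil markers the lowest (-5.00); red and blue points are called higher and lower in TUMOR.

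The 1253 genes under 1 FPKM in culture entered the test by different groups. There were 251 that had at least 1 FPKM in all TUMOR libraries and in the whole of no other group, and 193 of these were higher in TUMOR and none lower. Another 405 did so in HOMING alone, of which 201 were lower and 22 higher in TUMOR. BM alone accounted for 63 (42 lower) and BM with HOMING for 124 (99 lower), while BM with TUMOR accounted for 82 (44 higher). These directions follow in large part from the way the genes entered.

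The largest rises of this class with at least 5 FPKM, out of 59 genes that met the conditions, were Adm, Pgf, Selenbp1, Spns2, Htra3 and Tmem37. Selenbp1 (Entrez 20341), a selenium-binding methanethiol oxidase, measured 0.88, 0.57 and 0.58 FPKM in BM and 39.31, 27.76 and 28.07 in TUMOR, with 0.71 ± 0.17 in NC, a log2 change of 5.50 ± 0.20 (edgeR adjusted p = 5.47e-10). Spns2, the exporter of sphingosine-1-phosphate, rose from 0.19 ± 0.06 to 6.57 ± 2.42 FPKM and the secreted protease Htra3 from 0.50 ± 0.04 to 7.41 ± 2.07. In TUMOR replicate 1 Spns2 stood at 9.33 FPKM, against 4.86 and 5.51 in the other libraries. The largest falls, out of 21, were Clec4e, Il1b, Wfdc17, Il1f6, Ccl3 and Csf3. Wfdc17 had 362 counts in BM and 1 in TUMOR, a ratio of 362 with an exact 95% interval of 64.5 to 14322. That interval covers counting error only. Clec4e, a fungal and mycobacterial receptor of myeloid cells, measured 5.32 ± 0.13 FPKM in BM, 0.01 ± 0.01 in TUMOR and 22.4 ± 6.78 in HOMING. Il1f6 (interleukin 36 alpha) differed in order, with 8.14 ± 0.74 FPKM in BM, 0.04 ± 0.02 in TUMOR and 3.68 ± 0.83 in HOMING.

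Genes that were near 0 in culture and graded across the recovered groups included the HOX genes of the D cluster, which mark position along the body and limb axes. Of 7 listed Hoxd genes 5 were tested and called higher in TUMOR. All 5 belong to the class under 1 FPKM in NC, where 29.7% of genes were called higher, and Hoxd3 (0.26 ± 0.04 FPKM in BM, 1.52 ± 0.51 in TUMOR) and Hoxd4 (0.23 ± 0.05 and 1.56 ± 0.68) entered the test through TUMOR alone, so the count is a description fixed in part by the filter. The 23 tested genes of clusters A, B and C were all expressed in culture, and Hoxc5 was the 1 called. Hoxd8 measured 1.22, 1.32 and 1.31 FPKM in BM and 10.90, 6.51 and 7.44 in TUMOR, with 0.02 ± 0.02 in NC and 0.18 ± 0.06 in HOMING, a log2 change of 2.65 ± 0.22 (edgeR adjusted p = 5.13e-07). Summed over the cluster, Hoxd levels were 0 to 0.07 FPKM in NC, 0.40 to 0.58 in HOMING, 4.42 to 4.77 in BM and 19.01 to 31.77 in TUMOR. The 4 groups did not overlap in that sum. The call on Hoxc5 turned to -2.06 when the most abundant transcript replaced the sum, and its FPKM was 3.66 ± 0.10 in BM and 3.68 ± 0.44 in TUMOR.

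Other genes had the same order of groups. The X-linked homeobox gene Rhox5, known from testis, placenta and cultured tumour lines, measured 43.04, 43.52 and 44.26 FPKM in BM and 267.65, 143.55 and 142.60 in TUMOR, with 0.13 ± 0.12 in NC and 4.21 ± 0.39 in HOMING (log2 change 2.04 ± 0.21, edgeR adjusted p = 2.36e-06). Of 14 genes on the list of Rhox and other germline genes that the files hold, 3 were tested, all of them Rhox genes under 1 FPKM in NC that entered through the recovered groups where they are high. Their 3 calls, all higher, stand beside the 29.7% called higher in that class and support nothing further. Rhox genes are a family of near-identical copies, so their separate values are uncertain. Krt8, a keratin of simple epithelia, measured 5.96, 6.44 and 6.47 FPKM in BM and 93.78, 48.13 and 51.94 in TUMOR, with 0.08 ± 0.06 in NC and 1.38 ± 0.25 in HOMING. Of 14 epithelial markers 2 were tested, Krt19 and the low-class gene Krt8, and were called higher. The 14 listed markers summed to 6.92 to 7.66 FPKM in BM and 70.9 to 116 in TUMOR. Krt8 and Krt19 made up most of the TUMOR sum, as only these 2 had a mean of at least 1 FPKM there. The keratin gene Krt18 measured 0.03 FPKM in BM and 0.06 in TUMOR. Krt18 and the defining adhesion genes Epcam and Cdh1 were too low to be tested. Rpl3, a ribosomal protein gene with processed copies, measured 76.72, 76.41 and 82.09 FPKM in BM and 341.63, 182.43 and 193.68 in TUMOR, against 2.01 ± 0.54 in NC and 31.3 ± 7.59 in HOMING. Of the 20 ribosomal protein genes Rpl3 and Rps18 were called, both higher, and the call on Rps18 was lost without TUMOR replicate 1.

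Sex-linked genes, looked at after other values were seen, differed between the groups as well. The Y-linked gene Eif2s3y measured 1.26, 1.17 and 1.24 FPKM in BM and 7.75, 3.90 and 4.03 in TUMOR, with 0 to 0.01 in NC and 1.89 to 2.82 in HOMING. It was higher in TUMOR by 2.06 ± 0.27 on the log2 scale (edgeR adjusted p = 2.22e-05), and Ddx3y by 1.56 ± 0.28 (adjusted p = 0.000301). Xist, the X-inactivation RNA, was too low to be tested and measured 0.22 to 0.24 FPKM in BM and 0.03 to 0.05 in TUMOR. TUMOR replicate 1 was the highest TUMOR library for 298 of the 372 higher genes of the low class (80.1%) and for 290 of the 484 expressed in culture (59.9%). It exceeded both other TUMOR libraries by more than 1.5 times for 162 and 28 of them. Among genes lower in TUMOR it was the highest for 198 of the 357 of the low class (55.5%). For those expressed in culture it was the highest for 102 of 539 (18.9%). Of these lower genes 71 and 5 exceeded both other libraries by more than 1.5 times. Whether cells other than the marked stromal cells contributed to these values was not tested.

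**Figure D5:**
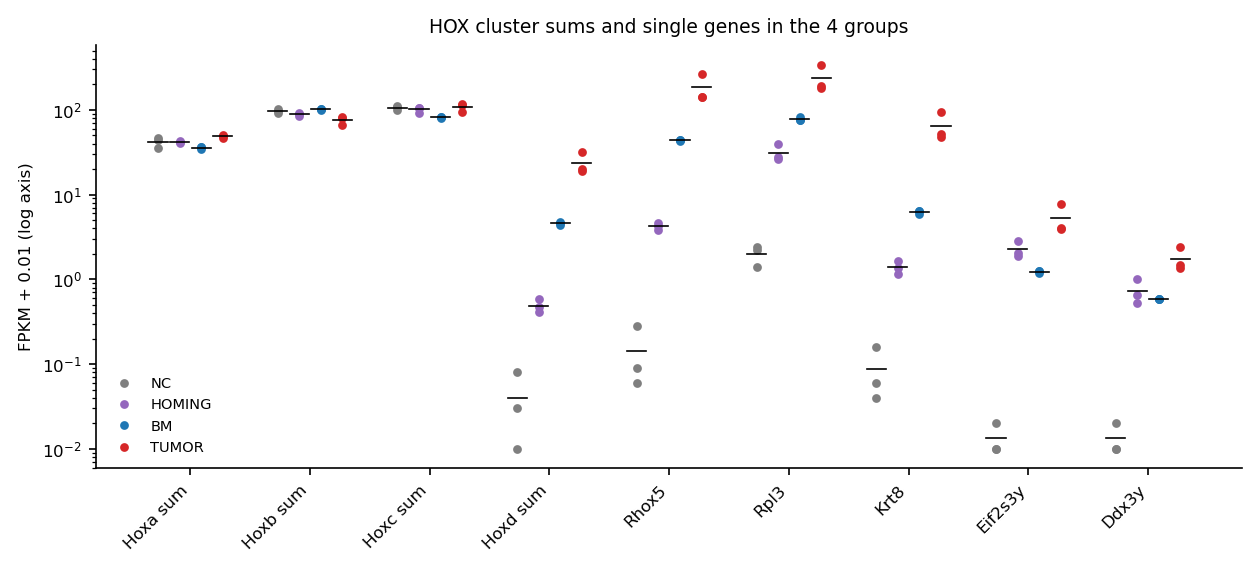
FPKM per library (points, log axis, 0.01 added) in NC, HOMING, BM and TUMOR, with a bar at each mean (n = 3), for the summed HOX clusters and for single genes. The Hoxd sum, Rhox5, Rpl3 and Krt8 step up from NC through HOMING and BM to TUMOR, with TUMOR replicate 1 highest, while the Hoxa, Hoxb and Hoxc sums lie between 34.7 and 117 FPKM in all libraries.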

How the data were processed

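RNA-seq libraries of sorted mouse GFP-BMSC were analysed, 3 in each of the groups BM, TUMOR, NC and HOMING, taken from the sample titles. Trizol extraction and a TruSeq kit were used, per the labels' protocols. Per the submitters' processing notes, Bowtie 0.12.2 and build mm8 were used; the name of the counting program was not given in the sources used here. The deposited tables list, per transcript, the authors' expected counts (estimated reads, not normalized) and the authors' FPKM, which is scaled to length and depth. Transcripts that are not listed were set to 0. Both values were summed per gene. Symbols were found for 19629 of 19679 Entrez numbers; 1322 genes carry no such number. Gene coordinates are not given, since no mm8 genome was used; promoters are from RefSeq (GRCm38.p6).

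Rounded counts of genes that reached 1 FPKM in 3 or more libraries were fitted in edgeR 4.0.16 (R 4.3.3; TMM factors 0.929 to 1.039, 4 group means) with a two-sided quasi-likelihood test of TUMOR minus BM and Benjamini-Hochberg adjustment over 12314 genes. A call needs an adjusted p under 0.05 and at least 2-fold. In simulated data for this comparison over 12314 genes, 100 of 100 genes changed 3-fold and 100 of 100 changed 6-fold were called, and 0 of 12114 unchanged genes. The simulated spread followed the common trend with level, without a part particular to each gene. The changed genes left out those of lowest counts, and no change near the 2-fold limit was simulated. The simulation therefore checks the working of the fit and gives no error rate for the real calls. The comparison, the members and the 50 gene lists were chosen with earlier results of these data known. Named genes are, per class, the 10 (expressed in culture) or 6 (under 1 FPKM) largest rises and falls among called genes whose groups do not overlap and whose higher mean is 5 FPKM or more, leaving out predicted genes, odorant and pheromone receptors, and gene segments of antigen receptors, and up to 4 called members of a list by smallest adjusted p, or the 2 of highest FPKM. Genes with 0 counts in a group get a bound against 3 counts over the group; for 1 to 3 counts a ratio with an exact 95% interval is given. Intervals cover counting error only. Alternatives used DESeq2 1.42.0, limma 3.58.1, other scalings, filters, class limits and transcript choices, a replicate block, and each library left out. Plots were drawn with matplotlib 3.10.9.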

Additional observations from a re-analysis of the deposited data

How the results depend on the processing

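The counts of called genes stayed within 1.5 times under DESeq2 (852 higher, 897 lower), median ratio and library size scaling, the BM and TUMOR libraries alone, the most abundant transcript, limma on log2(FPKM + 0.1) and an adjusted p under 0.01. They moved further under other settings. Without a minimum fold change 4359 genes were higher and 4217 lower, of which 3826 and 3799 were expressed in culture. With a 5 FPKM filter, which tests fewer genes, the counts were 398 and 533, and in the low class 51 and 152. With limma on log2(FPKM + 1), which shrinks changes of low genes, they were 476 and 454, with 313 and 356 expressed in culture and 163 and 98 in the low class. Without an FPKM filter, over 18057 genes, 1796 were higher and 1402 lower, with 1384 and 783 in the low class. With the class limit at 0.5 FPKM in NC, 246 genes of the low class were higher.

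Leaving out 1 library at a time gave 772 to 900 higher and 839 to 919 lower genes, 440 to 516 and 493 to 573 among genes expressed in culture, and 332 to 384 and 341 to 368 in the low class. With a replicate block the counts were 848 higher and 902 lower, 482 and 545 among genes expressed in culture, and 366 and 357 in the low class. It is not known whether BM and TUMOR libraries of the same number share a mouse. Deviations of same-numbered BM and TUMOR libraries correlated at 0.02, -0.01 and -0.05, against -0.04 to 0.09 for pairs of unlike number. These correlations give no sign of a pairing by number, but they cannot exclude one. Of 164 named genes followed over 21 settings, 3334 of 3416 values kept direction and side of the threshold, 63 lost the call, 5 gained it, 12 uncalled ones changed sign or moved, and 2 called ones reversed (Has1 at -2.08 and Hoxc5 at -2.06 with the most abundant transcript). Without TUMOR replicate 1 the log2 changes of Il1b (-9.26), Wfdc17 (-9.91), Ccl3 (-8.40), S100a9 (-7.99), Tyrobp (-9.44), Fcgr3 (-7.39), Hbb-bs (-5.52) and Pf4 (-5.60) moved by over 1.5 times in fold; without TUMOR replicate 2 Csf3 moved to -7.76, and without TUMOR replicate 3 H2-Ab1 to -4.76. Over the 3 TUMOR libraries Wfdc17 and Tyrobp had 1 count each and Fcgr3 had 3. Their log2 changes without TUMOR replicate 1 therefore rest on few or no counts and are not measured folds. Limits are 3 libraries per group, an unstated sort purity and few counts for blood markers in TUMOR.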

Other observations

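Tmub1, which encodes a ubiquitin-like membrane protein and was picked for its values, had 0 counts in all 3 BM libraries together and 590 in the 3 TUMOR libraries, at least 197-fold higher in TUMOR against a floor of 3 counts. It was expressed in culture (2.55 ± 0.72 FPKM in NC). Of 1517 called genes with at least 1 FPKM in BM or TUMOR, 65 had changes in counts and in FPKM that differed by more than 1 on the log2 scale, as Has1 and Hoxc5 did.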
